A study of Mus musculus with 12 samples.

Results

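The transcripts described here are those of 10 chemokine ligands, *Ccl2*, *Ccl3*, *Ccl4*, *Ccl6*, *Ccl7*, *Ccl9*, *Cxcl1*, *Cxcl2*, *Cxcl16* and *Pf4*, matched by gene name, and all 10 were found once among the 52636 genes that each of the deposited tables lists. The list was chosen with earlier results of these data known. Counts of ligands called below therefore describe the list and do not test it against all genes. They were measured in neutrophils and in monocyte-derived macrophages from the bone marrow of C57BL/6 J mice whose age was between 8 and 12 weeks. No transgene or mutation is named for any group. The neutrophils were obtained with an enrichment kit, and the monocytes, which the sample labels call monocyte/macrophage after culture, were isolated and then grown in M-CSF (10 ng/ml, 3 days), under which they become macrophages. Each cell type then received 1 nM CGRP, a neuropeptide released by sensory neurons, or the saline vehicle (PBS) for 4 h, with 3 libraries in each of the 4 groups and 12 in all. The comparison asks what CGRP does to the myeloid cells that take part in tissue healing. The libraries held between 2002559 and 3631989 counts of unique molecules, and 3 counts, taken as the floor of detection, correspond to between 0.826 and 1.498 CPM. Levels are given below in this unit (CPM), counts scaled to a common library size, with TMM, a factor that corrects for the composition of each library. They count 1 fragment near the 3′ end of each transcript and are therefore not divided by gene length. The sources do not say whether the libraries of a group came from separate mice or cultures, so p-values measure the spread between these libraries only, which may be technical.

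Chemokines are small secreted proteins that guide leukocytes through G-protein-coupled receptors, and they are grouped as CC or CXC by the spacing of their first cysteines. CCL2 and CCL7 call monocytes out of the marrow and into tissue through CCR2. CCL3 and CCL4 are inflammatory chemokines that attract monocytes and T cells, CCL3 in part through CCR1, whereas CCL6 and CCL9 are abundant myeloid chemokines of rodents that act through CCR1. CXCL1 and CXCL2 attract neutrophils through CXCR2. CXCL16 is made as a membrane protein, is shed by ADAM10 and binds CXCR6, and PF4 is the chemokine that platelets store in their granules with serglycin. The receptor for CGRP raises cAMP, which in myeloid cells is known to restrain part of the inflammatory program.

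The genes lie in clusters. On chromosome 11 of GRCm38, *Ccl2* (ENSMUSG00000035385, chr11:82035571-82037453, plus strand) and *Ccl7* (ENSMUSG00000035373, chr11:82045712-82047525, plus strand) are neighbours whose starts are 10.1 kb apart. Further along, *Ccl9* (ENSMUSG00000019122, chr11:83572919-83578636, minus strand), *Ccl6* (ENSMUSG00000018927, chr11:83587882-83593087, minus strand), *Ccl3* (ENSMUSG00000000982, chr11:83647844-83649355, minus strand) and *Ccl4* (ENSMUSG00000018930, chr11:83662584-83664683, plus strand) share a stretch of 91.8 kb. *Cxcl16* (ENSMUSG00000018920, chr11:70453983-70459984, minus strand) stands apart on the same chromosome. On chromosome 5, *Pf4* (ENSMUSG00000029373, chr5:90772435-90773383), *Cxcl1* (ENSMUSG00000029380, chr5:90891241-90893115) and *Cxcl2* (ENSMUSG00000058427, chr5:90903871-90905938) lie on the plus strand within 133.5 kb. At most 4.37% of the 31-base sequences of a member's longest coding transcript occurred in another annotated gene, the highest share being that of *Cxcl2* with *Cxcl3*. On the opposite strand, *Zmynd15* overlaps *Cxcl16* and had at most 27 counts in any library, E230016K23Rik overlaps *Ccl6* with at most 8, and Gm17268, which overlaps *Ccl2*, had 0. Because the strand setting of the counting is not stated, those reads cannot be told apart from the members' own.

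RefSeq promoter windows on GRCm38.p6 were matched for 6 of the 10 ligands. The start meant here is that of RefSeq, which for *Cxcl1*, *Cxcl2* and *Ccl3* differs from the gene positions given above. The windows of *Cxcl1* and *Cxcl2* therefore reach into those positions. The 250 bases before the start are shown for *Ccl9* and *Ccl6*, whose transcripts rose with CGRP in macrophages, for *Ccl3* of the same cluster, which fell, and for *Cxcl2*, which did not pass the test. Capitals mark matches, on either strand, to any of 6 motifs: TGACG (the half-site of the cAMP response element), TGANTCA (AP-1), TTGCNNAA (C/EBP), GAGGAA (the core of PU.1), TATAAA (the TATA box) and the κB consensus of NF-κB, with no gap between overlapping matches.
Ccl9, chr11:83578637-83578886, minus strand: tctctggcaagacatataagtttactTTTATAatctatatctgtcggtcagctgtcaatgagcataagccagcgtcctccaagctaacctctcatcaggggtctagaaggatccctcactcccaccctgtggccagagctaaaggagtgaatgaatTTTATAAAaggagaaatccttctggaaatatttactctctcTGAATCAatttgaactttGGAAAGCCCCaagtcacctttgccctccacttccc
Ccl6, chr11:83593088-83593337, minus strand: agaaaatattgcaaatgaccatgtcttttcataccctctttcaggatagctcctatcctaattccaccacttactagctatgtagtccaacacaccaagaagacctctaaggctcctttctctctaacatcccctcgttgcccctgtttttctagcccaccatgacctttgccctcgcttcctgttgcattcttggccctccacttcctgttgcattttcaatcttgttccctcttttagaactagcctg
Ccl3, chr11:83649379-83649628, minus strand: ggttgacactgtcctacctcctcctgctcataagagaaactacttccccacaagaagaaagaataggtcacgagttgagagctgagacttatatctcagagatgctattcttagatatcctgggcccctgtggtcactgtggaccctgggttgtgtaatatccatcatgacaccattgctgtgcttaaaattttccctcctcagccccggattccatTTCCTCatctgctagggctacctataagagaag
Cxcl2, chr5:90903649-90903898, plus strand: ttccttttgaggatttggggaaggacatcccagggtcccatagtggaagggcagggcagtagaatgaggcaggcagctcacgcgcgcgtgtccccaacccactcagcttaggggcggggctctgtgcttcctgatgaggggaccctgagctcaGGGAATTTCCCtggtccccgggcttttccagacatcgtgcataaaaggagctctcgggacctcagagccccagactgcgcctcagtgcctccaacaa

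The *Ccl9* window held a κB match that begins 35 bases before the start, an AP-1 match that begins 53 bases before it, and TATAAA at 3 places counted over both strands. The *Ccl6* window held none of the 6, although the longest run of bases it shared with the *Ccl9* window was 13 bases. The *Ccl3* window held GAGGAA on the opposite strand, 33 bases before the start. A κB match lay 97 bases before the start of *Cxcl2*, where overlapping runs matched on both strands, and the window of *Cxcl1*, not printed, held a κB match and TGACG at 2 places. Among all 32851 windows of this length, 7.25% held the κB consensus, 6.75% AP-1, 17.8% TGACG, 9.56% the C/EBP motif, 23.3% GAGGAA and 12.4% TATAAA. These matches describe letters only.

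Before the results, the labels were set against cell type markers. The 11 neutrophil markers, led by *S100a8*, summed to 191997 ± 35435 CPM (SD, n = 3) in neutrophils with PBS and to 349 ± 46.4 in macrophages with PBS. The 12 monocyte and macrophage markers, led by *Lyz2*, summed to 69589 ± 10503 CPM in macrophages with PBS, where *Adgre1* (F4/80) stood at 449 CPM and *Csf1r* (the M-CSF receptor) at 785. The neutrophil preparations also held monocyte markers, at 25178, 28884 and 23678 CPM with PBS and 23303, 19437 and 18622 with CGRP, in which *Lyz2*, a gene that neutrophils express as well, made up most of the sum and *Adgre1* stood at 40.5 and 28.6. Basophil markers (1081 ± 105 CPM, led by *Prss34*), eosinophil markers (621 ± 37.4), B cell markers (686 ± 22.1) and erythroid markers (6433 ± 751) were present there too. In macrophages with PBS those 4 lists summed to 13.6, 14.5, 130 and 21.9 CPM, and the T and NK cell list to 0.716. In such bulk samples, fewer cells of a type and less RNA per cell cannot be told apart.

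CGRP split the ligands of macrophages into a group that fell and a group that rose. *Ccl2*, *Ccl7*, *Ccl3* and *Ccl4* were 2.99 to 4.33 times lower with CGRP than with PBS, while *Ccl6*, *Ccl9* and *Cxcl16* were 1.58 to 1.70 times higher. Neither *Cxcl2* nor *Pf4* passed the test, and *Cxcl1* was at the floor in all 6 libraries. Thus 7 of the 9 ligands tested had an adjusted p under 0.05 by limma-voom, 3 higher and 4 lower, where 7.43% of all 9393 genes tested did, 3.46% higher and 3.97% lower. The same 7 had groups that did not overlap, against 24.1% of all genes tested. Since the ligands were chosen with earlier results known, these shares are a description and do not test for an excess. Because the responses ran in both directions, the median log2 fold change of the 9 was 0.06, beside 0.0047 over all genes tested.

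**Figure D1:**
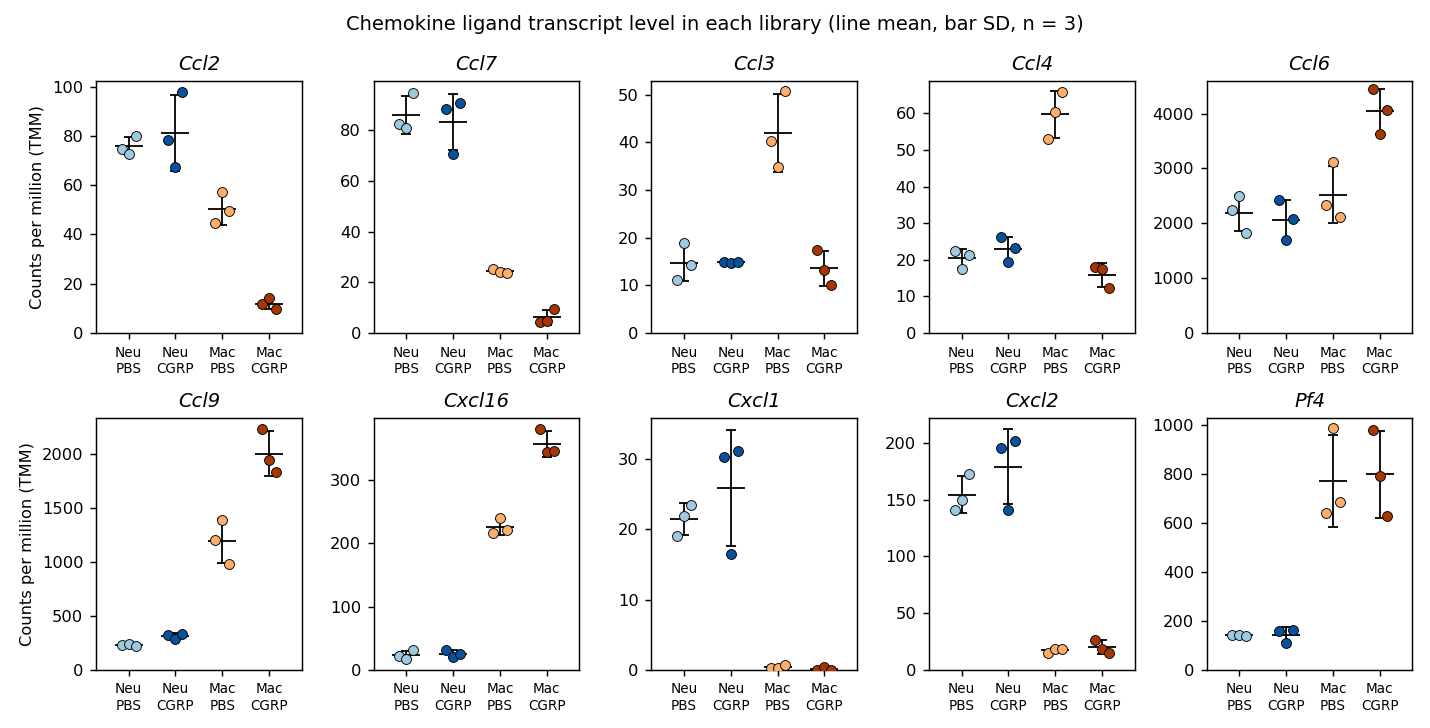
Transcript level in CPM (TMM-scaled, linear axis from 0) of each ligand in each library, for neutrophils (Neu) and macrophages (Mac) with PBS or CGRP; points are libraries, lines are means and bars are SD (n = 3). In macrophages the 4 ligands *Ccl2*, *Ccl7*, *Ccl3* and *Ccl4* sit lower with CGRP in every library, and *Ccl6*, *Ccl9* and *Cxcl16* sit higher.

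The CCR2 ligands fell. *Ccl2* stood at 44.5, 57.3 and 49.3 CPM in the macrophage libraries with PBS and at 11.9, 14.2 and 9.65 with CGRP, so that every library with CGRP was below every library with PBS. The mean with PBS was 50.4 ± 6.43 CPM and that with CGRP 11.9 ± 2.30 (SD, n = 3), for a log2 fold change of -2.05 (95% interval -2.53 to -1.57; limma-voom adjusted p = 2.04e-05). *Ccl7*, the neighbouring gene, was at 25.3, 24.2 and 23.8 CPM with PBS and at 4.17, 4.87 and 9.65 with CGRP. Its libraries with PBS lay close together and the third library with CGRP was the highest of its group, yet the groups were well apart. The mean fell from 24.4 ± 0.806 to 6.23 ± 2.98 CPM, which is a log2 fold change of -2.12 (-2.76 to -1.48; limma-voom adjusted p = 0.000254). The lower values rest on few molecules, since the libraries with CGRP held between 13 and 19 counts of *Ccl7* and between 19 and 38 of *Ccl2*.

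The inflammatory chemokines *Ccl4* and *Ccl3* fell as well. *Ccl4* was at 53.0, 60.3 and 65.8 CPM in macrophages with PBS and at 18.0, 17.6 and 12.2 with CGRP. No library of one group reached the other, and the mean went from 59.7 ± 6.42 to 15.9 ± 3.24 CPM, which is a log2 fold change of -1.87 (-2.31 to -1.43; limma-voom adjusted p = 2.30e-05). *Ccl3*, a ligand of CCR1, was at 40.2, 34.8 and 50.8 CPM with PBS and at 17.3, 13.1 and 10.2 with CGRP. The lowest library with PBS was still above the highest with CGRP, and the mean fell from 41.9 ± 8.12 to 13.5 ± 3.60 CPM, which is a log2 fold change of -1.58 (-2.09 to -1.06; limma-voom adjusted p = 0.000512).

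The CCR1 ligands *Ccl9* and *Ccl6* moved the other way. *Ccl9* was at 1201, 1384 and 978 CPM in macrophages with PBS and at 2231, 1938 and 1831 with CGRP, and its mean rose from 1188 ± 203 to 2000 ± 207 CPM (log2 fold change 0.76, 0.46 to 1.06; limma-voom adjusted p = 0.00262). *Ccl6*, the ligand with the most counts, was at 2331, 3108 and 2119 CPM with PBS and at 4443, 3623 and 4064 with CGRP. Both genes were higher in every library with CGRP, although the second library with PBS was the highest of its group for each. The mean of *Ccl6* rose from 2519 ± 521 to 4043 ± 411 CPM (log2 fold change 0.70, 0.39 to 1.01; limma-voom adjusted p = 0.00668), and without the first library with PBS its log2 fold change was 0.65 with an adjusted p of 0.0728. *Cxcl16*, the membrane-anchored ligand, varied least for its level among the ligands that rose. It was at 217, 240 and 222 CPM with PBS and at 381, 345 and 347 with CGRP. Its mean rose from 226 ± 12.3 to 358 ± 20.2 CPM (log2 fold change 0.66, 0.40 to 0.92; limma-voom adjusted p = 0.00290).

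The remaining ligands of macrophages did not pass the test. *Cxcl2*, a neutrophil attractant, was at 14.8, 17.9 and 18.6 CPM with PBS and at 26.6, 18.4 and 14.7 with CGRP, and the groups overlapped (log2 fold change 0.23, -0.29 to 0.75; limma-voom adjusted p = 0.662). *Pf4* was at 640, 985 and 685 CPM with PBS and at 979, 789 and 626 with CGRP, again with overlap (0.06, -0.32 to 0.43; limma-voom adjusted p = 0.899). These intervals leave room for a moderate change in either direction. *Cxcl1* had 1, 1 and 2 counts with PBS and 0, 1 and 0 with CGRP, all under the floor of 3 counts per library, so no change was detectable at this depth and no fold is given.

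**Figure D2:**
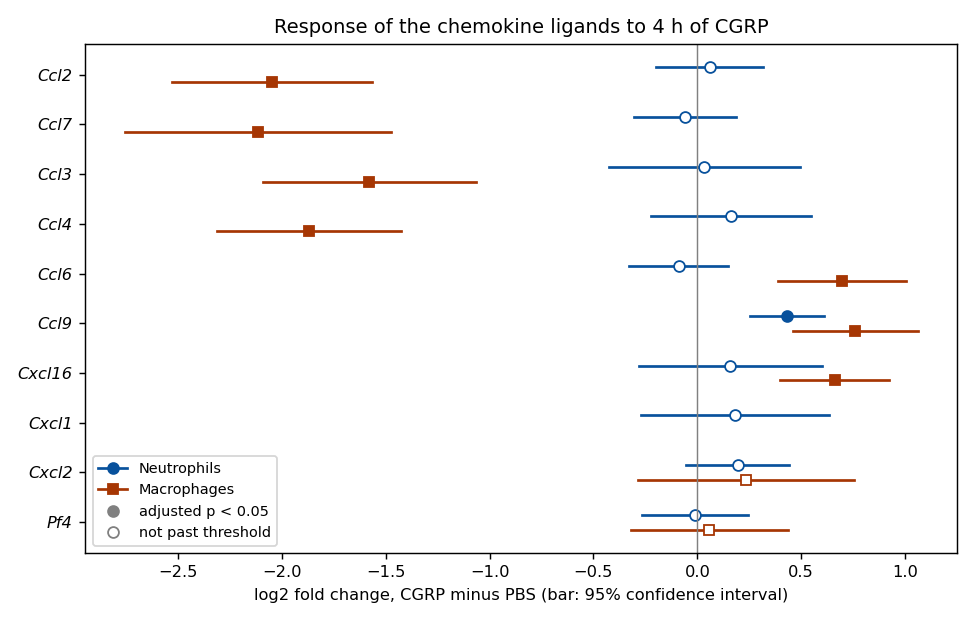
Log2 fold change (CGRP minus PBS, horizontal axis) of each ligand in neutrophils (circles) and macrophages (squares), with 95% confidence intervals from limma-voom; filled symbols have an adjusted p under 0.05. All 7 filled squares are far from 0 on one side or the other, the only filled circle is *Ccl9*, and *Cxcl1* has no square because it was not tested in macrophages.

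Within the stretch of 91.8 kb on chromosome 11, both directions occurred. *Ccl9* and *Ccl6*, whose starts are 14.5 kb apart, rose in macrophages, and *Ccl3* and *Ccl4*, which start 70.7 and 83.9 kb from the start of *Ccl9*, fell. The other annotated genes in that stretch, E230016K23Rik and *Rpl9-ps1*, had at most 8 and 1 counts in any library and were not tested. On chromosome 5, none of the ligands tested between *Pf4* and *Cxcl2* passed in either cell type.

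**Figure D3:**
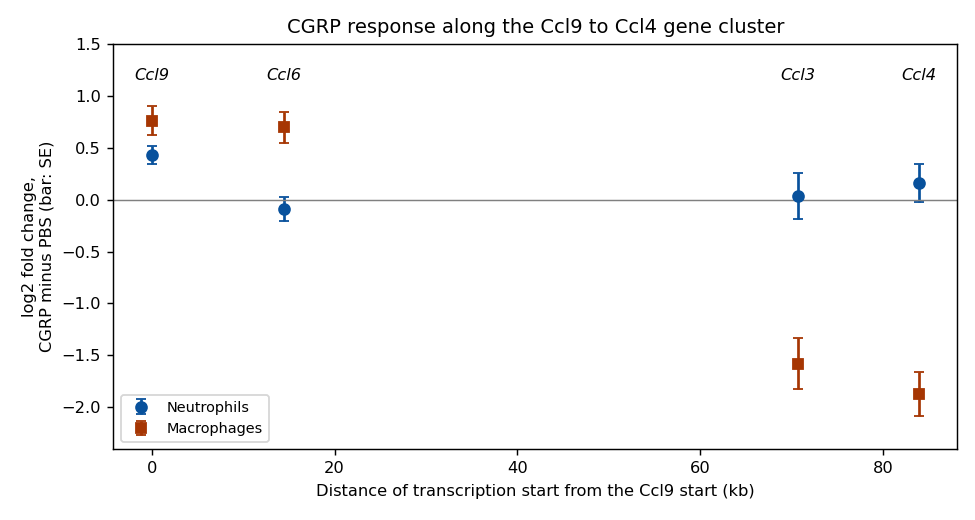
Log2 fold change (CGRP minus PBS, vertical axis, bars SE) of the 4 ligands tested in the chromosome 11 cluster against the distance of their start from that of *Ccl9* in kb, for neutrophils (circles) and macrophages (squares). In macrophages the first pair lies at 0.76 and 0.70 and the second pair at -1.58 and -1.87.

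In neutrophils, 1 of the 10 ligands passed the test. *Ccl9* was at 228, 242 and 222 CPM with PBS and at 326, 286 and 326 with CGRP, so every library with CGRP was above every library with PBS. Its mean rose from 231 ± 10.3 to 313 ± 23.2 CPM (SD, n = 3), or 1.35 times (log2 fold change 0.43, 0.25 to 0.61; limma-voom adjusted p = 0.00525). In a single fit over all 12 libraries its adjusted p was 0.146. Of all 9819 genes tested in neutrophils, 2.53% passed, 1.51% higher and 1.02% lower, and 17.8% had groups that did not overlap. The median log2 fold change was 0.11 over the ligands and 0.00080 over all genes tested.

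For the other 9 ligands of neutrophils the groups overlapped, with adjusted p-values by limma-voom between 0.549 and 0.990. *Ccl2* was at 74.8, 72.8 and 80.1 CPM with PBS and at 78.4, 67.2 and 97.9 with CGRP, and the interval of its log2 fold change ran from -0.20 to 0.32. *Ccl7* was at 82.2, 80.9 and 94.8 CPM with PBS and at 88.2, 70.7 and 90.8 with CGRP, with an interval of -0.30 to 0.18. A fall of the size seen in macrophages lies outside both. *Ccl4* (-0.22 to 0.55) and *Ccl3* (-0.43 to 0.49) had wider intervals at their mean levels of 20.4 and 14.8 CPM with PBS, and these too lie above the fitted change in macrophages. The abundant *Ccl6* went from 2186 ± 335 to 2060 ± 366 CPM (-0.33 to 0.15), and *Cxcl16* from 23.1 ± 6.82 to 25.3 ± 5.78 (-0.28 to 0.60).

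For the neutrophil attractants, 1 neutrophil library with CGRP was lower than the others of its group. *Cxcl2* was at 141, 150 and 173 CPM with PBS and at 195, 141 and 201 with CGRP, and *Cxcl1* at 19.0, 21.9 and 23.5 with PBS and at 30.3, 16.4 and 31.2 with CGRP. *Pf4* was at 141, 140 and 140 CPM with PBS and at 159, 108 and 162 with CGRP. The second library with CGRP was the lowest of its group for these 3 genes and for all 10 ligands. Without it, *Ccl9* remained the only ligand past the threshold, and the log2 fold change moved from 0.19 to 0.37 for *Cxcl2*, from 0.18 to 0.52 for *Cxcl1* and from -0.01 to 0.19 for *Pf4*, with adjusted p-values by limma-voom of 0.109, 0.243 and 0.478.

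The CGRP effect itself was compared between the cell types by an interaction term over the 12 libraries. For 5 of the 10 ligands it differed with an adjusted p under 0.05, against 2.36% of all 10694 genes tested. With a list chosen in knowledge of earlier results, this share too is a description. The log2 fold change in macrophages minus that in neutrophils was -2.10 for *Ccl2* (95% interval -2.65 to -1.55; limma-voom adjusted p = 2.94e-05), -2.05 for *Ccl7* (-2.73 to -1.38; 0.000574), -2.02 for *Ccl4* (-2.59 to -1.44; 9.39e-05) and -1.60 for *Ccl3* (-2.29 to -0.90; 0.00773). *Ccl6* differed in the other direction, by 0.80 (0.38 to 1.22; limma-voom adjusted p = 0.0327), but edgeR's quasi-likelihood test gave an adjusted p of 0.0602, and the call held in 4 of the 12 fits that leave out 1 library. The rise of *Ccl9* was not shown to differ between the cell types (0.34, -0.01 to 0.69; limma-voom adjusted p = 0.402), nor was that of *Cxcl16* (0.52, 0.01 to 1.02; limma-voom adjusted p = 0.358).

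Without CGRP, the cell types differed in 9 of the 10 ligands, 5 higher and 4 lower in macrophages, but 68.5% of all 10186 genes tested differed too, 33% higher and 35.5% lower. Levels in CPM were scaled within the 6 libraries of each cell type, and the folds and tests come from a joint fit of the PBS libraries. Cell type, culture with M-CSF and the table in which the counts were deposited cannot be told apart here. The neutrophil preparations also held monocyte, basophil, eosinophil, B cell and erythroid markers, as given above. With PBS, markers of T and NK cells summed there to 122 ± 8.38 CPM and those of stromal and endothelial cells to 81.1 ± 8.70. *Ccr2*, a receptor of monocytes, stood at 312 CPM in these preparations and at 288 in macrophages with PBS. The part of all those cells in the resting differences, those of *Ccl2* and *Ccl7* included, was not tested. *Cxcl16* was 9.84 times higher in macrophages (226 against 23.1 CPM), *Pf4* 5.23 times (770 against 140), *Ccl9* 4.95 times (1188 against 231), *Ccl4* 2.83 times (59.7 against 20.4) and *Ccl3* 2.74 times (41.9 against 14.8). Higher in neutrophils were *Cxcl2*, by 9.27 times (155 against 17.1 CPM), *Ccl7*, by 3.58 times (86.0 against 24.4), and *Ccl2*, by 1.56 times (75.9 against 50.4), each with an adjusted p by limma-voom of at most 0.000486. *Cxcl1* had 200 counts in the 3 neutrophil libraries and 4 in the 3 macrophage libraries, a ratio of 48.7 per count sequenced (95% counting interval 18.7 to 180). *Ccl6* did not differ beyond the spread, at 2519 and 2186 CPM (log2 difference 0.15, -0.14 to 0.45; limma-voom adjusted p = 0.335). Over the 4 groups, then, *Ccl2* and *Ccl7* stood highest in both neutrophil groups, which overlapped, lower in macrophages with PBS and lowest in macrophages with CGRP. *Ccl3* and *Ccl4* were highest in macrophages with PBS, and with CGRP their levels in macrophages overlapped those of neutrophils with PBS. With CGRP in both cell types, *Ccl3* overlapped, whereas every macrophage library was below every neutrophil library for *Ccl4*.

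The 10 ligands together took 0.290%, 0.298% and 0.271% of the counts of the neutrophil libraries with PBS and 0.324%, 0.253% and 0.316% of those with CGRP, so these groups overlapped. In macrophages they took 0.464%, 0.561% and 0.454% with PBS and 0.776%, 0.670% and 0.680% with CGRP, and the groups did not. *Ccl6* alone made up between 50.3% and 58.7% of the ligand counts in macrophages and between 68.0% and 76.6% in neutrophils. *Ccl9* made up between 23.2% and 28.7% in macrophages, so that the summed share was higher with CGRP although 4 of its members fell.

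**Figure D4:**
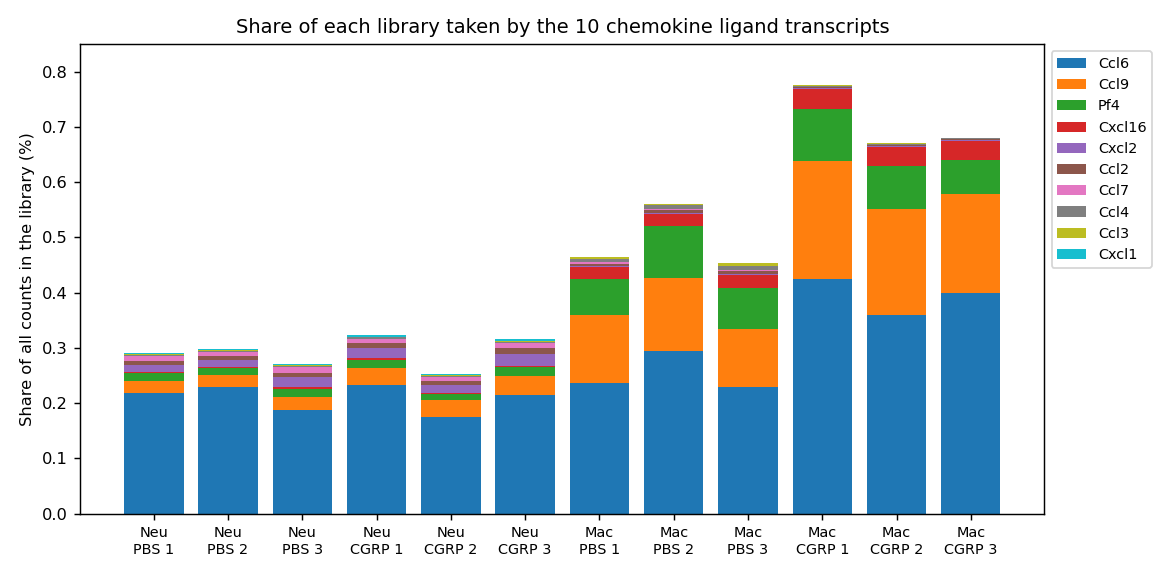
Share of all counts in each library (percent, vertical axis) taken by the 10 ligands, stacked by gene, for the 12 libraries. The macrophage libraries with CGRP reach between 0.670% and 0.776%, above the 0.454% to 0.561% of macrophages with PBS, and *Ccl6* is the largest block in every library.

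Marker lists of other cells were read beside these changes. In macrophages, the monocyte and macrophage list summed to 68391, 80639 and 59737 CPM with PBS and 83665, 79972 and 83879 with CGRP, and 1 of its 12 genes passed the test, *Apoe*, which was higher in a call that held in 3 of the 6 fits that leave out 1 library. The neutrophil list summed to 341, 399 and 307 CPM with PBS and 456, 430 and 421 with CGRP, with 0 of 8 genes tested past the threshold by limma-voom, 2 at an unadjusted p under 0.05, and 0 by edgeR or DESeq2. The 5 dendritic cell markers, mostly led by *Cd209a*, summed to 3.49, 4.85 and 4.75 CPM with PBS and 7.06, 9.75 and 7.62 with CGRP, with *Xcr1* at 0 in every library. The 5 B cell markers, led by *Ighm*, summed to 121, 123 and 147 CPM with PBS and 109, 104 and 117 with CGRP, with *Cd79a* and *Ms4a1* at 0 in every library. The neutrophil and dendritic cell sums were thus higher and the B cell sum lower with CGRP without overlap, and the part of these lists in the changes of the ligands was not tested. In neutrophils, 1 of the 12 monocyte and macrophage markers passed, *Lyz2*, which was lower (log2 fold change -0.39; limma-voom adjusted p = 0.0296). That call held in 7 of 10 alternatives and in 2 of the 6 fits that leave out 1 library, and its part in the level of *Ccl9* was not tested. The B cell sum of neutrophil preparations was 671, 677 and 712 CPM with PBS and 628, 622 and 620.5 with CGRP, and the sum of the 6 T and NK cell markers, led by *Nkg7*, was 113, 123 and 130 CPM with PBS and 108, 83.9 and 105 with CGRP. Both were lower with CGRP without overlap, and their part in the level of *Ccl9* was not tested either. *Pf4* is also known as a platelet gene, and a platelet list was read beside it. In macrophages with PBS its 11 genes summed to 4.66, 4.55 and 6.58 CPM, led by *Ppbp*, and *Gp9*, *Gp1bb*, *Gp1ba*, *Gp5*, *Gp6* and *Tubb1* were at 0 in all 3 libraries, while *Pf4* was at 640 CPM or more. With CGRP the list summed to 9.95, 6.37 and 15.2 CPM in macrophages, and the groups overlapped. In neutrophils with PBS the list summed to 29.0, 27.3 and 26.7 CPM with *Gp1ba* and *Tubb1* at 0, beside 140 CPM of *Pf4*, and the part of platelets in that level was not tested. Neutrophils with CGRP had sums of 34.7, 22.6 and 35.1 CPM, again with overlap.

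Of the other 28 chemokine genes listed, 25 had a single row in the tables. In neutrophils 10 could be tested and 0 passed by limma-voom, 1 at an unadjusted p under 0.05, and 0 by edgeR or DESeq2. In macrophages 6 could be tested, and *Ccl5*, a chemokine that attracts T cells, rose from 31.5 to 47.5 CPM (log2 fold change 0.60; limma-voom adjusted p = 0.0473), a call that held in 1 of the 6 fits that leave out 1 library. *Cxcl14* went from 104 to 138 CPM and *Ccl24* from 51.2 to 69.3 without passing. The receptors of the ligands were read in the same cells. *Ccr2*, the receptor for CCL2 and CCL7, fell in both cell types. In macrophages it was at 293, 293 and 279 CPM with PBS and 157, 165 and 171 with CGRP (log2 fold change -0.81, SE 0.124; limma-voom adjusted p = 0.000480). In neutrophil preparations it was at 323, 300.0 and 313 CPM with PBS and 238, 218 and 209 with CGRP (-0.49, SE 0.0839; limma-voom adjusted p = 0.00134). The summed monocyte and macrophage markers of these preparations were also lower with CGRP, at 23303, 19437 and 18622 CPM against 25178, 28884 and 23678 with PBS, without overlap, and their part in the level of *Ccr2* was not tested. The difference between the cell types was not past the threshold (limma-voom adjusted p = 0.343).

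*Ccr1*, the receptor for CCL3, CCL6 and CCL9, rose in neutrophils from 147 to 217 CPM (log2 fold change 0.56; limma-voom adjusted p = 0.0463), with overlapping groups and a call that held in 1 of the 6 fits that leave out 1 library. In macrophages it went from 61.8 to 72.4 CPM (limma-voom adjusted p = 0.538). *Cxcr2*, the receptor for CXCL1 and CXCL2, went from 563 to 641 CPM in neutrophils without passing. Of the 8 receptors, 4 could be tested in each cell type, and no others passed. Among the 5 atypical receptors, which lack classical chemokine signalling, only *Ccrl2* could be tested in macrophages. It rose there from 15.8 to 27.9 CPM (log2 fold change 0.81, limma-voom adjusted p = 0.0239). That call held in 2 of the 6 fits that leave out 1 library. Of the 4 genes of storage and release, *Srgn*, which encodes serglycin, rose in both cell types, from 939 to 1490 CPM in neutrophils (0.65; limma-voom adjusted p = 0.000343) and from 289 to 471 in macrophages (0.70; limma-voom adjusted p = 0.00150). *Adam10* and *Adam17*, the sheddases, passed in neither.

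Among the 22 regulators of chemokine transcription and mRNA decay, 20 could be tested in macrophages, of which 5 rose and 1 fell. *Atf3*, a repressor of inflammatory genes, was the one that fell. It was at 243, 290 and 229 CPM with PBS and 66.4, 56.2 and 44.7 with CGRP (log2 fold change -2.17; limma-voom adjusted p = 5.61e-07), and this effect differed from that in neutrophils by -2.35 (limma-voom adjusted p = 1.06e-05). *Cebpb*, a transcription factor of myeloid cells, rose from 89.4 to 206 CPM (1.20; limma-voom adjusted p = 0.000505). The NF-κB family members *Nfkb2* (28.4 to 52.1 CPM), *Rel* (27.3 to 45.9) and *Relb* (29.8 to 46.8) and the IκB relative *Bcl3* (8.83 to 23.3 CPM) rose too, with adjusted p-values by limma-voom of 0.00906, 0.0136, 0.0355 and 0.00914. These 4 calls were each lost in at least 2 of the 6 fits that leave out 1 library. *Nfkbia*, the inhibitor that NF-κB itself induces, stood at 138 and 145 CPM and did not pass. In neutrophils 3 of 21 regulators tested rose, *Cebpb* (0.59; limma-voom adjusted p = 0.00514), *Nfkb2* (0.60; 0.0258) and the phosphatase gene *Dusp1* (0.41; 0.0249), and these calls held in 5, 0 and 1 of the 6 such fits.

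Other cytokines did not follow one direction. *Il1b*, which encodes the cytokine IL-1β, rose in macrophages from 3.49, 4.24 and 5.48 CPM to 63.5, 57.7 and 50.8 (log2 fold change 3.71; limma-voom adjusted p = 6.41e-07) and in neutrophils from 83.8, 92.9 and 96.9 to 189, 217 and 164 (1.06; limma-voom adjusted p = 3.22e-06). Its rise was larger in macrophages by 2.66 (limma-voom adjusted p = 1.26e-05). *Osm* also rose in macrophages, from 3.02 to 10.9 CPM (limma-voom adjusted p = 0.00407), and *Tnf* fell from 4.86 to 0.865 CPM (limma-voom adjusted p = 0.0149), the latter level resting on 1 to 3 counts per library and the call holding in 2 of the 6 fits that leave out 1 library. That left 1 of the 4 cytokines tested in macrophages short of the threshold, and 3 of 4 in neutrophils.

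A list of genes taken here as responsive to cAMP was read beside the response to CGRP. Whether cAMP induced any of them in these cells, *Thbs1* included, was not tested. It was chosen with results of these libraries known, so it describes the response and cannot check it. In macrophages all 9 that could be tested rose, namely *Crem*, which encodes a cAMP-responsive factor (13.9 to 181 CPM), the phosphodiesterase genes *Pde4b* (12.4 to 137) and *Pde3b* (6.21 to 56.8), the nuclear receptor genes *Nr4a1* (11.5 to 22.8) and *Nr4a2* (2.44 to 41.3), *Fosl2*, an AP-1 member (17.3 to 60.3), *Rgs2*, a regulator of G-protein signalling (266 to 477), *Vegfa*, an angiogenic factor (8.23 to 44.2), and *Thbs1*, which encodes thrombospondin-1 (51.3 to 1601). The call of *Nr4a1* held in 5 of the 6 fits that leave out 1 library. In neutrophils 3 of 11 rose, *Thbs1* (110 to 582 CPM), *Nr4a2* (8.44 to 23.7) and *Pde4b* (52.0 to 79.2; the call held in 5 of the 6 such fits), and none fell. The median log2 fold change of the genes tested was 3.09 in macrophages and 0.52 in neutrophils.

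**Figure D5:**
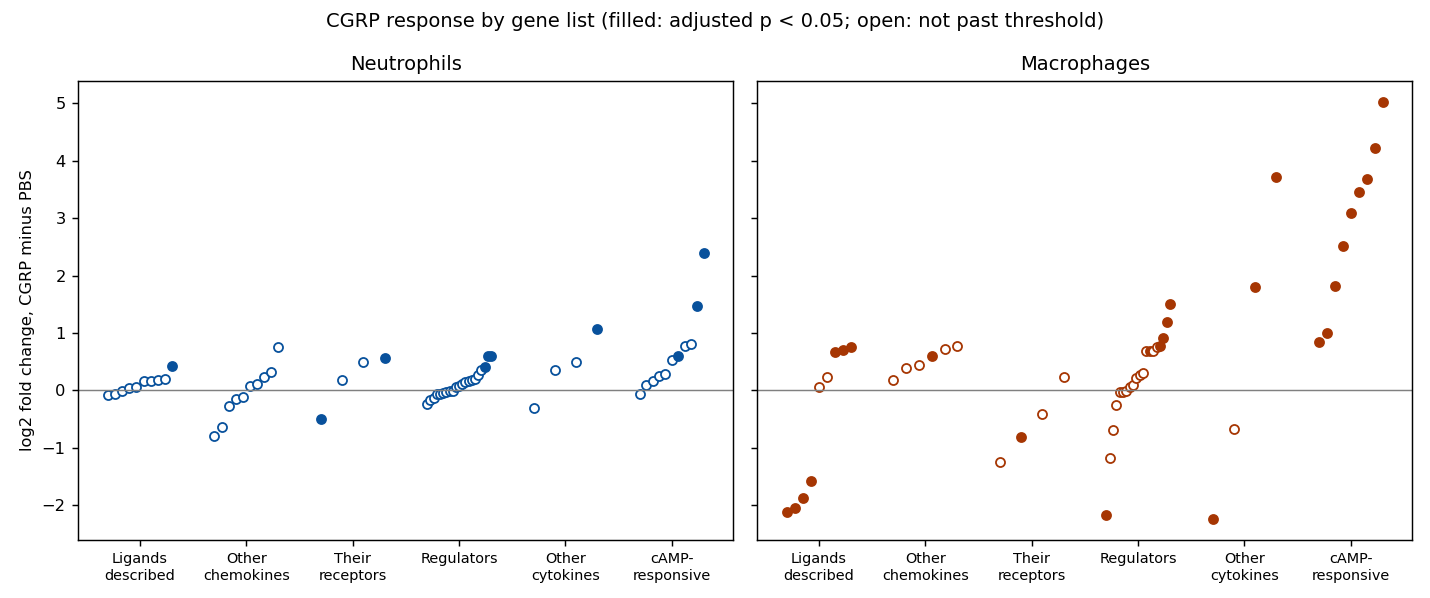
Log2 fold change (CGRP minus PBS, vertical axis) of every gene tested in 6 lists, in neutrophils (left) and macrophages (right), each point a gene ordered by its value; filled points have an adjusted p under 0.05 by limma-voom. The ligands described spread to both sides of 0 in macrophages, from -2.12 to 0.76, and stay between -0.09 and 0.43 in neutrophils.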

How the data were processed

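Per the labels and the methods, RNA of at least RIN 7 was primed at the poly-A tail with unique molecular identifiers. The authors used the nfCore/RNAseq pipeline with its umi function, with STAR for alignment to GRCm38 and featureCounts for counting. The deposited counts are raw whole numbers in 1 table per cell type. The annotation release, the strand setting and any filter on low counts are not given in the sources used here.

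The members and the other gene lists were chosen with earlier results of these data known. All 10 ligands are named, and from each other list the genes with an adjusted p under 0.05 in either cell type, with a few others as examples. Some genes of these lists are not reported here by name. Within each cell type, genes were kept by filterByExpr, then scaled by TMM and compared by limma-voom (two-sided, Benjamini-Hochberg adjustment over all genes tested, threshold 0.05). The difference in effect was an interaction term over the 12 libraries, and resting cells were compared over the 6 libraries with PBS. No library was a copy of another of its group, and libraries of different groups were not checked for this. Intervals and floors cover 95% and 3 counts, and the counting interval of *Cxcl1* covers counting error only. The alternatives were edgeR, DESeq2, other scaling, filters and weights, thinned counts, the replicate block, a fold change over 1.5, a single fit and leaving out each library. Steps were tested on simulated data. Positions came from GENCODE vM21 and promoters from RefSeq. Figures were drawn with matplotlib 3.10.9, tables read with pandas 2.3.3 under Python 3.11.15, and models fitted with DESeq2 1.42.0, edgeR 4.0.16 and limma 3.58.1 under R 4.3.3.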

Additional observations from a re-analysis of the deposited data

Results flagged for a closer look

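For 5 ligands the effect of CGRP differed between macrophages and neutrophils by a test of the difference itself, the interaction term of limma-voom over the 12 libraries. The log2 fold change in macrophages was lower than that in neutrophils for *Ccl2* (-2.10), *Ccl7* (-2.05), *Ccl4* (-2.02) and *Ccl3* (-1.60), and each difference kept its direction and an adjusted p under 0.05 in the 9 alternatives and the 12 fits without 1 library. It was higher for *Ccl6* (0.80), with adjusted p-values from 0.00490 to 0.0602 in the alternatives and from 0.00373 to 0.139 without 1 library. Cell type, culture and table cannot be told apart in these differences.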

How the results depend on the processing

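The 7 calls of macrophages held in every alternative, and 6 to 7 without 1 library, where *Ccl6* was lost without the first library with PBS. The count of ligands called in neutrophils was 0 under a fold change over 1.5 and 0 in a single fit over all 12 libraries, where *Ccl9* had an adjusted p of 0.146, and it was 1 in each fit without 1 library. The differences in effect called numbered 4 to 5 and the differences at rest 8 to 10, with 8 where *Cxcl1* could not be tested (at least 10 counts in every library) and 10 with *Ccl6* when TMM was left out (adjusted p = 0.0298). Log2 values that changed sign belonged to ligands that were not called, and the cause was not tested. In neutrophils these were *Ccl3* with the replicate block (-0.00023), *Ccl7* without TMM (0.0011) and *Pf4* by edgeR (0.021), by DESeq2 (0.023), without TMM (0.045) and with the replicate block (0.0053). Without 1 library, the ranges in neutrophils were -0.065 to 0.19 for *Ccl2*, -0.16 to 0.23 for *Ccl3*, -0.22 to 0.045 for *Ccl6*, -0.12 to 0.064 for *Ccl7*, -0.035 to 0.36 for *Cxcl16* and -0.12 to 0.19 for *Pf4*. In macrophages they were -0.019 to 0.40 for *Cxcl2* and -0.10 to 0.25 for *Pf4*. The difference in effect changed sign for *Cxcl2* without TMM (-0.060), with thinned counts (-0.16) and without 1 library (-0.20 to 0.21), and for *Pf4* without TMM (-0.030) and without 1 library (-0.14 to 0.28). The resting difference of *Ccl6* ranged from -0.015 to 0.28 without 1 library.

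Libraries with the same replicate number were not treated as pairs, because the sources do not say whether they share mice. The correlations of their deviations from the group means were 0.043, -0.013 and 0.13 in neutrophils and 0.058, -0.18 and 0.27 in macrophages. Libraries with unlike numbers gave -0.13 to 0.10 in neutrophils and -0.40 to 0.38 in macrophages. The deviations within so small a group are not independent, so these values cannot decide on pairing. The replicate block moved the calls over all genes from 248 to 266 in neutrophils, from 698 to 915 in macrophages and from 252 to 295 for the difference, and it left 1, 7 and 5 ligands called. Of 34 calls of genes in the other lists, 25 held in every alternative run that gave a value and 19 of these also without any 1 library, and 0 changed sign. Levels under the floor, such as *Cxcl1* in macrophages, are not resolved at this depth.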

Other observations

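The genes whose level followed a ligand most closely over the 6 libraries of a cell type were listed for the ligand with the smallest adjusted p. For *Ccl2* in macrophages, these were *Snx24* (Pearson r of log2 CPM 0.999), *Bcar3* (0.996) and *Nmt1* (0.996), among 7014 genes with a mean of at least 10 CPM. For *Ccl9* in neutrophils, they were *Ldha*, a glycolytic enzyme (0.995), *Cd9*, a tetraspanin (0.992), and *Klhdc4* (0.990), among 7202 genes. The 6 libraries include both treatments, so any gene that changed with CGRP as the ligand did ranks high, and these values are a description.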
